A study of Mus musculus with 8 samples.

Results

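Mitochondrial ribosomal proteins were examined in the microdissected genital tubercle region of mouse embryos of the FVB/N strain, the outgrowth that later forms the penis or the clitoris. The members were all probe sets annotated to a single gene whose symbol is Mrpl or Mrps followed by a number and at most 1 letter: 156 probe sets of 76 genes, out of 45101 probe sets on the array and 18193 genes with a probe set of their own. The 4 male and 4 female samples were taken at embryonic day 14 (Theiler stage 22). They carried no transgene or treatment according to the labels and were not pooled. The RNA of each sample went through 2 rounds of amplification before it was put on 1 Affymetrix MOE430 array. A shared litter or hybridization day is neither stated nor denied in the sources used here, so the p-values measure only the spread among the 8 samples, some of which may be technical.

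Mitochondria keep their own ribosome, which translates the few membrane proteins of the respiratory chain that mitochondrial DNA encodes. Its proteins are all encoded in the nucleus, made in the cytosol and imported. Some descend from the proteins of bacterial ribosomes, and others are found only in mitochondria. The small subunit (mostly Mrps genes) decodes the message, and the large subunit (mostly Mrpl genes) joins the amino acids and carries the exit tunnel. Of the 76 genes, 49 encode large subunit proteins, among them Mrps18a and Mrps30 despite their names, and 26 small subunit proteins. Mrps36 matches the naming rule but its protein is now placed in the alpha-ketoglutarate dehydrogenase complex.

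The genes with the widest sex differences come with the sequences around their starts, so that the 2 directions can be compared: Mrpl49 and Mrpl57 were the lowest in males, and Mrpl50 and Mrpl16 the highest, each on the probe set with the highest mean. Second probe sets of Mrpl57 and Mrpl50 had differences of the opposite sign, given below, and were not called. Each sequence (RefSeq, GRCm38.p6) is read 5′ to 3′ along the gene's strand from 250 bases before to 50 bases after the start. Capitals mark matches, on either strand, to 3 motifs that regulators of genes for mitochondrial proteins are known to bind: CCGGAAG of the ETS family including Gabpa, GCGCA and GCGC with any 1 base between them of Nrf1, and AAGATGGC of Yy1.
Mrpl49 promoter, chr19:6057706-6058005, minus strand: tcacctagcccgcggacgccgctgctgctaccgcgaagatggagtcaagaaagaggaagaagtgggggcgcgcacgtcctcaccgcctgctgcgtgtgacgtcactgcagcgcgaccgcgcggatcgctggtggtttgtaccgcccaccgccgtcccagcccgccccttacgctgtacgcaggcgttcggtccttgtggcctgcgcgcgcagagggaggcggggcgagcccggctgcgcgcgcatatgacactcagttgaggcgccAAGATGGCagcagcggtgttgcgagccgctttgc
Mrpl57 promoter, chr14:57825989-57826288, plus strand: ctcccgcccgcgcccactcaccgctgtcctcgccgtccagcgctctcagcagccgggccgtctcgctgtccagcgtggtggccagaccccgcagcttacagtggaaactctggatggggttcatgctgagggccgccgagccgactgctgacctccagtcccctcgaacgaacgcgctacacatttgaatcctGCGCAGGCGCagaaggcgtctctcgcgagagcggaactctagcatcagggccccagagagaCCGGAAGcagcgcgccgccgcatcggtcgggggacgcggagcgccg
Mrpl50 promoter, chr4:49521034-49521333, minus strand: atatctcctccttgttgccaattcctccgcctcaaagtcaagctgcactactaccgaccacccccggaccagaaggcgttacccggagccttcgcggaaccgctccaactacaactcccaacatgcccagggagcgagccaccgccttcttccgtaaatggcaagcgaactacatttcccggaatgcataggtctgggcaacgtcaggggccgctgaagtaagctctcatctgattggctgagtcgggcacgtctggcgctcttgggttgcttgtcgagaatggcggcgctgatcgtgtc
Mrpl16 promoter, chr19:11770165-11770464, plus strand: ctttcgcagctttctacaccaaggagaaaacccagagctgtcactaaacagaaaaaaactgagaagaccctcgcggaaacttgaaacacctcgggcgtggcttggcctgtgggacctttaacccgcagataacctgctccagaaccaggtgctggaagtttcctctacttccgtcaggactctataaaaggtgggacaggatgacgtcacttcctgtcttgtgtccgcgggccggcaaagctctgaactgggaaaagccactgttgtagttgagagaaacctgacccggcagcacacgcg

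The Mrpl49 window holds the Yy1 motif 16 bases after its start. The Mrpl57 window holds an Nrf1 match from 57 to 48 bases before its start and an ETS match 4 bases after it. The windows of Mrpl50 and Mrpl16 hold none of these letters, which says nothing about the binding of the factors. Of the 67 member genes with a window in the table, 41 (61.2%) hold at least 1 motif. This stands beside 32.1% of the 9251 tested genes with a window and 16.4% of all 27025 genes with a window. The ETS motif is in 25 member genes (37.3%, beside 19.8% of tested genes), and the Nrf1 motif and the Yy1 motif are in 12 each (17.9%, beside 11.6% and 5.29%). Among members lower in males 25 of 42 hold any motif, and among members that did not pass the test 16 of 23. These are shares of 59.5% and 69.6%, so members with and without a call both often hold at least 1 motif. The single motifs varied. Yy1 was in 10 of the 42 lower members (23.8%) and 2 of the 23 without a call (8.7%). Nrf1 was in 14.3% and 26.1% of them, and ETS in 35.7% and 43.5%. These shares were not tested against each other.

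Values are intensities on the linear scale as deposited. Group levels are mean ± SD with n = 4 per sex, and differences (male minus female) are in units of log2(intensity + 16), with the standard error (SE) of a limma fit over the 22519 probe sets that passed a filter on low values. A probe set is called at a limma p under 0.05 after Benjamini-Hochberg adjustment over all of them. The filter kept 128 of the 156 member probe sets, and all 76 genes had at least 1. For each gene the tested probe set with the highest mean, its leading probe set, stands for the gene.

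The sexes differed across much of the array, and some features of the arrays moved with sex. Male arrays had more of the control for 18S ribosomal RNA, with 21050 to 33634 in males against 8332 to 18926 in females (two-sided exact permutation test, p = 0.029, the smallest that 4 against 4 allows, and 0.0571 adjusted over 4 array measures). The median log2(intensity + 16) of the array was 7.93 ± 0.12 in males and 7.72 ± 0.07 in females, with the same p-values and no overlap. The 3′ to 5′ difference of the Gapdh control, a measure of RNA integrity, was 3.81 ± 0.19 in males and 4.01 ± 0.25 in females on the log2 scale (exact permutation p = 0.257). The Y-linked Eif2s3y read 5480 ± 950 in males and 48.4 ± 20.1 in females. The tubercle genes Hoxd13 (29770 ± 1276 in males and 36381 ± 1956 in females) and Isl1 (26832 ± 1235 in males and 33690 ± 2714 in females) were bright in both sexes. Hoxa13, another tubercle gene, was dim and below the filter (161.9 ± 9.4 in males and 200.5 ± 43.5 in females). Male replicate 3 also read 16036 for Xist, the RNA of the inactive X chromosome, at a Y-linked level like that of the other males, so counts without it are given below.

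Mitochondrial ribosomal protein genes were mostly lower in males. Of 76 genes, 49 (64.5%) were called lower in males, 2 were called higher and 25 did not pass. Over all 11489 tested genes 42.2% were called, with 28.2% lower and 14% higher in males. The median difference of the members was -0.51, beside -0.12 over all tested genes, and 69 of the 76 differences were below 0. Male and female ranges did not overlap for 47 members lower in males and 2 higher in males, beside 27.3% and 12.3% of all tested genes. Without male replicate 3, 42 genes were called lower and 2 higher, with no array-wide share given here for that run. In whole tissue, fewer cells that make these transcripts and less RNA per cell cannot be told apart.

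**Figure D1:**
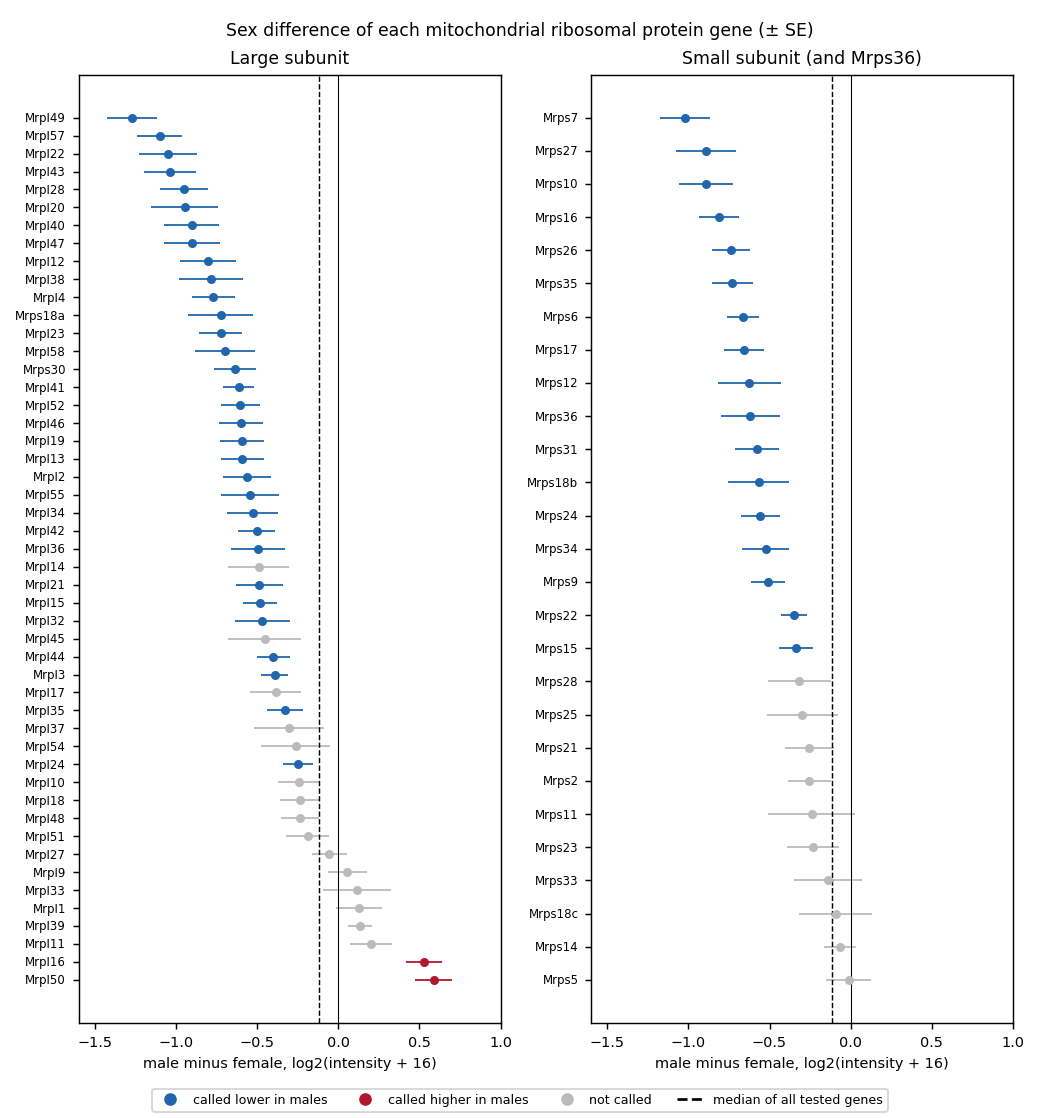
Male minus female difference of each member gene (x axis, log2(intensity + 16); points with SE bars, n = 4 per sex), large subunit genes left and small subunit genes with Mrps36 right. Most points lie left of the dashed median of all tested genes at -0.12, and Mrpl50 (0.59) and Mrpl16 (0.53) stand alone on the right as called higher in males.

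The shift was seen on the arrays one by one. The median member level, as log2(intensity + 16), was 11.10, 10.83, 10.69 and 10.88 on male arrays 1 to 4, against 11.56, 11.40, 11.44 and 11.37 on female arrays 1 to 4. Relative to the median of all tested genes on the same array it was 0.09, -0.12, -0.19 and -0.08 in males, against 0.44, 0.31, 0.34 and 0.25 in females. Every female array thus lay above every male array on both measures. Male replicate 1 was the highest male array for 49 of the 76 genes and female replicate 1 the highest female array for 47. Male replicate 3 had the lowest member level and the highest 18S control, and female replicate 1 the highest member level and the lowest 18S control. Male replicate 1, with the highest member level among males, had an 18S control of 28985, above those of male replicates 2 and 4. With the 18S level as a covariate 1 member gene was called lower, Mrpl49, and 0 higher, beside 0.914% lower and 1.09% higher over all tested genes (limma). At an unadjusted p under 0.05 the member counts were 20 lower and 1 higher, and the member median was -0.39. The share of all tested genes at that unadjusted threshold is not given, so these counts have no background to be read against. The part of the 18S signal in the sex difference cannot be told apart from sex here, because the 2 sexes do not overlap in it.

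**Figure D2:**
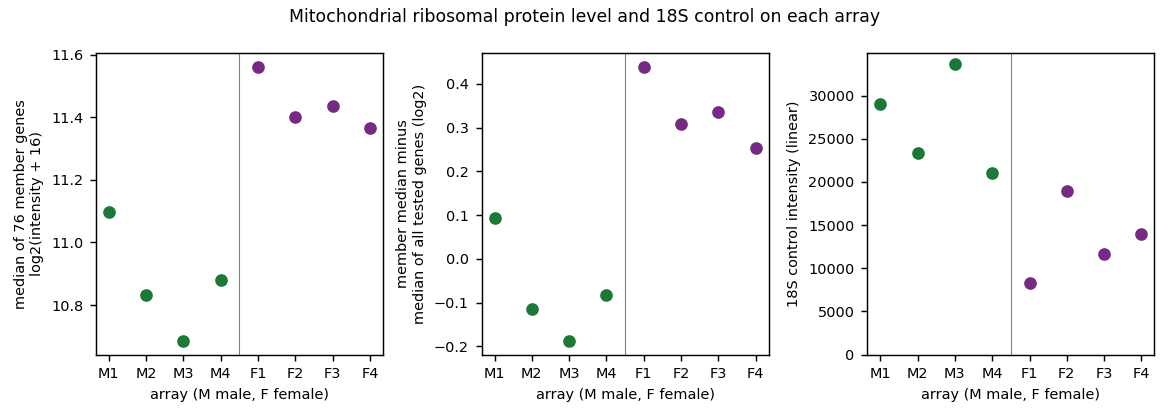
Left, median level of the 76 member genes on each array, as log2(intensity + 16); middle, the same minus the median of all tested genes; right, the 18S control intensity on a linear axis. Male arrays are M1 to M4 and female arrays F1 to F4, and in each panel the sexes do not overlap.

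Both subunits shared the direction. In the large subunit 32 of 49 genes were lower in males, 2 were higher and 15 missed the threshold, with a median of -0.50. In the small subunit 16 of 26 were lower, 10 did not pass and 0 were higher by limma, with 0 also at an unadjusted p under 0.05 and all 26 differences below 0. The median was -0.52. Genes with a bacterial counterpart and genes found only in mitochondria were also close, with 30 of 47 lower (median -0.49) and 18 of 28 lower (median -0.55). No difference between these classes was tested. Mrps36, outside the ribosome, was lower in males as well (-0.62 ± 0.18, limma adjusted p = 0.017).

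Among the large subunit proteins found only in mitochondria, Mrpl49 had the widest difference. It read 1436, 1187, 1228 and 923 in males, against 3305, 2667, 3005 and 2565 in females. No male array reached the lowest female one, and the difference was -1.27 ± 0.15 (limma adjusted p = 0.000137). Mrpl57, a short protein of the same class, had 2404, 1779, 1682 and 1845 in males, against 4912, 3866, 3770 and 4010 in females. Its highest male array lay well below its lowest female array (-1.10 ± 0.14, limma adjusted p = 0.000173). The other tested Mrpl57 probe set averaged 1247 in males and 895 in females, the opposite direction, and missed the threshold (0.46, limma adjusted p = 0.0563). Mrpl43 had 2565, 1769, 1583 and 1959 in males and 4845, 3636, 4121 and 3517 in females (-1.04 ± 0.16). Mrpl40 had 1246, 875, 876 and 1104 in males and 2403, 1751, 1902 and 1669 in females (-0.90 ± 0.17). For both genes replicate 1 was the highest array within each sex and the ranges stayed apart.

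Large subunit proteins with bacterial counterparts included Mrpl22, whose bacterial relative lines the exit tunnel, Mrpl28 and Mrpl20. Mrpl22 had 1615, 1563, 923 and 1583 in males, against 3131, 2638, 2846 and 2957 in females (-1.05 ± 0.18, limma adjusted p = 0.000805). Male replicate 3 was low for Mrpl22, and without it the difference was -0.86. Mrpl28 had 3134, 2029, 2511 and 2413 in males and 5500, 4088, 4446 and 5455 in females (-0.95 ± 0.15). Mrpl20 had 1368, 809, 1042 and 1065 in males and 2814, 1985, 2115 and 1475 in females (-0.95 ± 0.21). The ranges of both genes stayed apart, with Mrpl20 closest, at 1368 in male replicate 1 against 1475 in female replicate 4.

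In the small subunit the widest difference on a leading probe set was that of Mrps7, whose bacterial relative organizes the head of the subunit. Mrps7 had 1616, 1350, 1114 and 1304 in males, against 3231, 2912, 2575 and 2266 in females (-1.02 ± 0.15, limma adjusted p = 0.000437). Its ranges did not overlap. Mrps12, related to a bacterial protein of the decoding centre, had 458, 817, 582 and 513 in males and 846, 843, 1077 and 859 in females (-0.63 ± 0.19, limma adjusted p = 0.0221). The gap for Mrps12 was narrow, at 817 in male replicate 2 against 843 in female replicate 2, and the call was lost without male replicate 4 (adjusted p = 0.0538) or without female replicate 3 (0.0734).

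**Figure D3:**
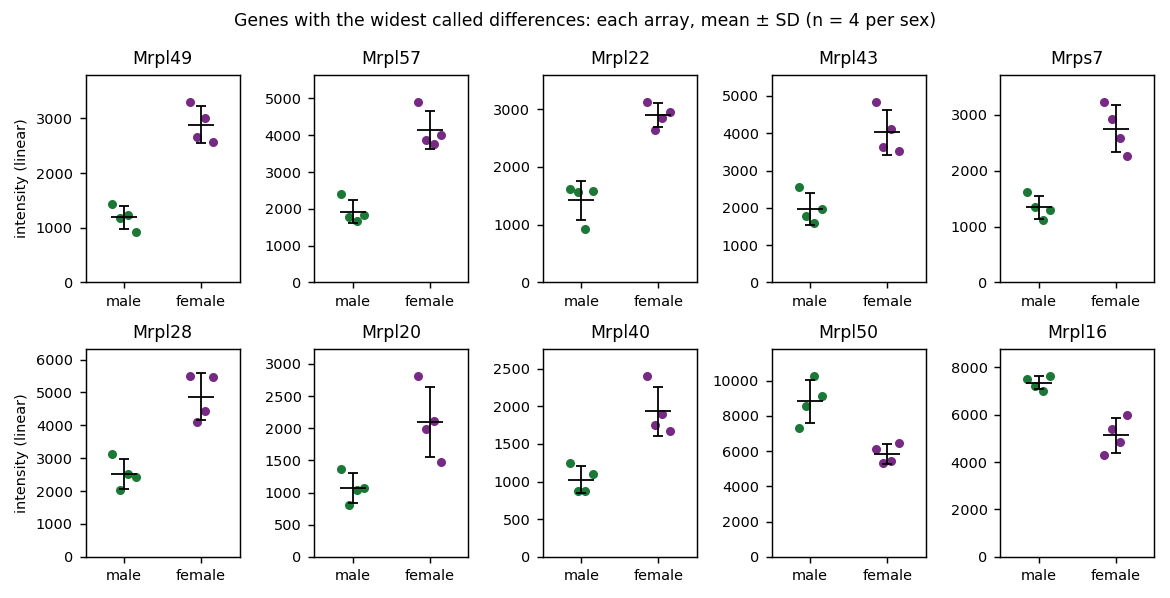
Intensity (linear axis from 0) of the 8 member genes with the widest lower calls and the 2 with higher calls, each point an array, the line and bar the mean ± SD (n = 4 per sex), males left and females right in each panel. The 2 sexes do not overlap in any panel, and only Mrpl50 and Mrpl16 have the male arrays on top.

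The 2 genes called higher in males both encode large subunit proteins. Mrpl50, found only in mitochondria, had 7330, 8562, 10259 and 9137 in males, against 6108, 5311, 5453 and 6483 in females (0.59 ± 0.11, limma adjusted p = 0.00187). Mrpl16, whose bacterial relative lies near the tRNA sites, had 7525, 7214, 7022 and 7639 in males, against 4287, 5393, 4835 and 5995 in females (0.53 ± 0.11, limma adjusted p = 0.00275). In both genes every male array lay above every female array. The Mrpl16 call was lost when each array was centred on its own median, where the difference was 0.32. Another Mrpl50 probe set, at -0.07, was not called (limma adjusted p = 0.811).

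Members with further known roles mostly followed the family. Mrpl12, the stalk protein that also binds the mitochondrial RNA polymerase, had 1645, 1033, 1057 and 1050 in males and 2478, 1813, 2008 and 1989 in females (-0.80 ± 0.17). Male replicate 1 was high for this gene and still below all females. Mrps30 averaged 3574 ± 420 in males and 5584 ± 821 in females (-0.64 ± 0.13), and Mrpl41 3562 ± 174 in males and 5464 ± 331 in females (-0.61 ± 0.10). Mrpl44, which carries a ribonuclease III-like domain, averaged 5774 ± 321 in males and 7665 ± 908 in females (-0.40 ± 0.10, limma adjusted p = 0.00852). These 4 genes had separate male and female ranges. Mrpl11, whose bacterial relative lies where translation factors bind, averaged 7343 ± 1160 in males and 6382 ± 937 in females, with overlapping ranges. Its difference of 0.20 did not pass (limma adjusted p = 0.234, 95% interval -0.08 to 0.48), and 2 more Mrpl11 probe sets, at -0.01 and 0.15, did not pass either.

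The 3 paralogs related to bacterial protein S18 did not have the same result. Mrps18a, in the large subunit, had 731, 504, 552 and 414 in males and 1104, 975, 764 and 801 in females (-0.73 ± 0.20, limma adjusted p = 0.0127). Mrps18b, in the small subunit, had 1092, 849, 570 and 803 in males and 1318, 1229, 1170 and 1107 in females (-0.57 ± 0.19, limma adjusted p = 0.0297). Both were called lower in males, with a narrow gap for Mrps18b, at 1092 against 1107. That call was lost without any 1 of 5 arrays (male replicates 3 and 4 and female replicates 1 to 3). Mrps18c, the other small subunit paralog, had 817, 1428, 1348 and 1731 in males and 1551, 1011, 1357 and 1664 in females. Its ranges overlapped widely and its difference of -0.09 did not pass (limma adjusted p = 0.768), with a 95% interval from -0.59 to 0.40. The intervals of Mrps18a (-1.16 to -0.29) and Mrps18b (-0.97 to -0.16) both overlap that of Mrps18c. Whether the paralogs differ from each other was not tested.

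Where a gene was read by several probe sets, these often differed. Mrps9, a small subunit protein with a bacterial counterpart, had the widest spread of differences among the members, with 4 tested probe sets. It is named because of that spread, after its values were seen. Its leading probe set was at -0.51 and 2 others at -0.69 and -1.32, all called lower in males, while the last was at 0.72 and not called (limma adjusted p = 0.106). The value of -1.32 was the lowest of all 128 tested member probe sets. Of the 76 genes, 34 had 1 probe set, 18 had 2, 15 had 3 and 9 had 4 or more, and 30 had at least 2 that were tested. All tested probe sets were called lower in males for 5 of these 30 genes (16.7%): Mrpl28, Mrpl41, Mrpl49, Mrps6 and Mrps24. Over the whole array this held for 318 of 4934 genes (6.45%). For Mrpl28 they read -0.95, -1.004 and -0.77, and for Mrpl41 -0.61 and -0.71. Mrpl15, with 6 tested probe sets, had 5 called lower and the last at -0.29. Over all probe sets, 68 of the 128 tested were called lower and 9 higher in males, beside 21.9% lower and 18.7% higher of all tested probe sets (40.5% called in all).

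Calls in both directions were found within 5 of the 30 genes, Mrpl13, Mrps31, Mrpl19, Mrpl21 and Mrpl3, or 38.5% of the 13 genes with at least 2 called probe sets, beside 24.5% of 1512 such genes on the whole array. Mrpl13 averaged 3863 ± 236 in males and 5910 ± 1160 in females on its leading probe set (-0.59), but 576.4 ± 147 in males and 298.9 ± 55.3 in females on another (0.89, limma adjusted p = 0.00706). Mrps31 averaged 1854 ± 286 in males and 2762 ± 284 in females on its leading probe set (-0.58), but 378.4 ± 105 in males and 189.5 ± 61.1 in females on the other (0.95, limma adjusted p = 0.0221). Mrpl3 read -0.39 and -0.33 on its 2 brightest probe sets and 0.70 on a dimmer one, Mrpl19 -0.59 and 0.72, and Mrpl21 -0.49 and 0.68. In each of these genes the probe set with the highest mean was lower in males.

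The 52 tested member probe sets other than the leading one of each gene had 19 called lower and 7 called higher, with a median of -0.14. Such probe sets over the whole array leaned the other way, with 1225 lower and 1991 higher of 8109 and a median of 0.12. The 9 member probe sets called higher all had the plain suffix of a probe set for 1 transcript, as did 76 of the 128 tested. Of those 76, 33 (43.4%) were called lower and 9 higher, beside 2921 lower (20.5%) and 2777 higher of 14230 plain-suffix probe sets on the whole array. Of the 28 member probe sets below the filter, the ranges of the sexes overlapped for 24, and 14 had a higher mean in males.

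**Figure D4:**
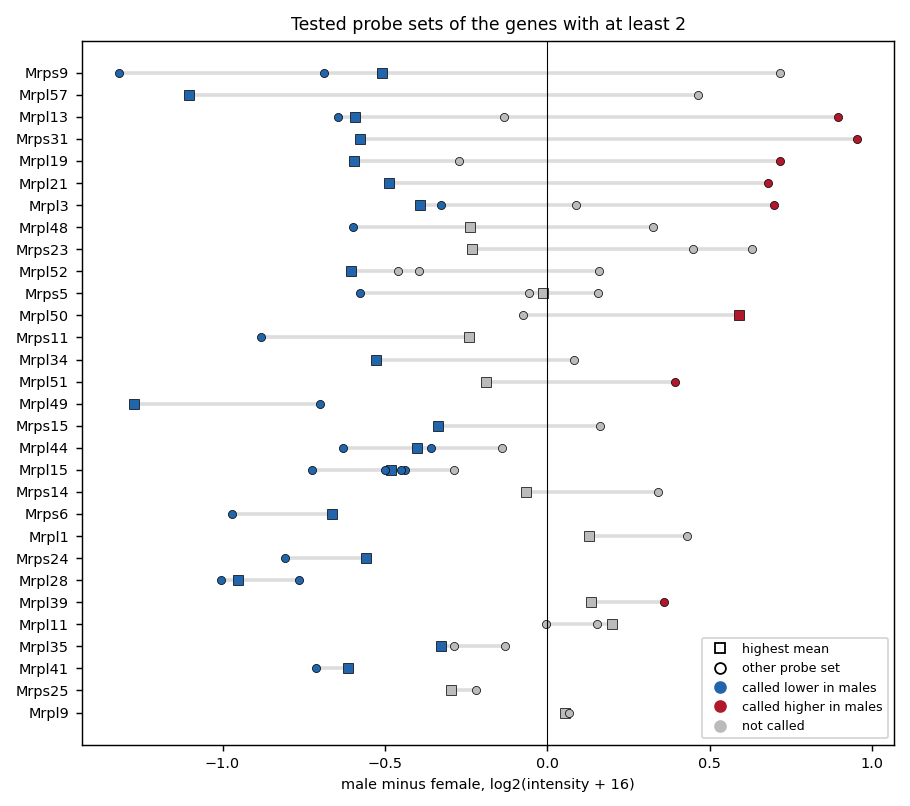
Male minus female difference, on the log2(intensity + 16) scale, of every tested probe set of the 30 member genes with at least 2; squares mark the probe set with the highest mean of each gene, and colours the call. Mrpl13, Mrps31, Mrpl19, Mrpl21 and Mrpl3 carry calls on both sides of 0.

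The counts for other genes of mitochondrial translation stand beside the 28.2% lower and 14% higher of all tested genes. Of 4 tested ribosomal proteins with other names, 1 was lower in males, the small subunit protein Chchd1 (3042 ± 384 in males and 4827 ± 523 in females, -0.67 ± 0.12), and 3 did not pass: Dap3 (-0.10), Ptcd3 (-0.18) and Gadd45gip1 (-0.42). Of 21 tested assembly factors of the mitochondrial ribosome, 8 were lower, 2 higher and 11 did not pass, with a median of -0.21. Mterf4, which brings a methyltransferase to the ribosomal RNA, differed by -0.86 ± 0.15, the GTPase Mtg2 by -0.75 ± 0.20 and the GTPase Eral1, a chaperone of the small subunit RNA, by -0.75 ± 0.11. Of 14 tested translation factors and their partners, 5 were lower, 2 higher and 7 did not pass, with a median of -0.08. The elongation factor Tufm averaged 2518 ± 299 in males and 4315 ± 381 in females (-0.78 ± 0.12), its exchange factor Tsfm differed by -0.74 ± 0.18, and the ribosome-bound GTPase Guf1 rose in males (0.74 ± 0.17).

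Of 14 tested mitochondrial tRNA synthetases 3 were lower in males, 0 higher and 11 did not pass by limma (median -0.24), with 0 higher also at an unadjusted p under 0.05. That number of lower calls is below the array-wide share of 28.2%. The 3 were Tars2 (-0.78 ± 0.18), Lars2 (-0.56 ± 0.12) and Vars2 (-0.46 ± 0.17), the enzymes for threonine, leucine and valine. Of 12 tested factors of mitochondrial transcription and biogenesis 3 were lower, 0 higher and 9 did not pass by limma (median 0.08), with 3 higher at an unadjusted p under 0.05. That number of lower calls is near the array-wide share of 28.2%. The nuclear receptor Esrra (-0.75 ± 0.22), the mitochondrial RNA polymerase Polrmt (-0.74 ± 0.15) and the coactivator Pprc1 (-0.63 ± 0.12) were lower. The factors named for the promoter motifs did not pass: Gabpa (0.19), Nrf1 (0.15) and Yy1 (0.05). Of 12 tested proteins of mitochondrial import, folding and metabolism 4 were lower, 1 higher and 7 did not pass (median -0.15). The import protein Timm44 (-0.99 ± 0.14), the outer membrane receptor Tomm22 (-0.85 ± 0.14) and the prohibitin Phb2 (-0.70 ± 0.09) were lower, and the outer membrane import receptor Tomm20 was not called (-0.15, limma adjusted p = 0.0922). The lists were not tested against each other or against the ribosomal proteins.

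**Figure D5:**
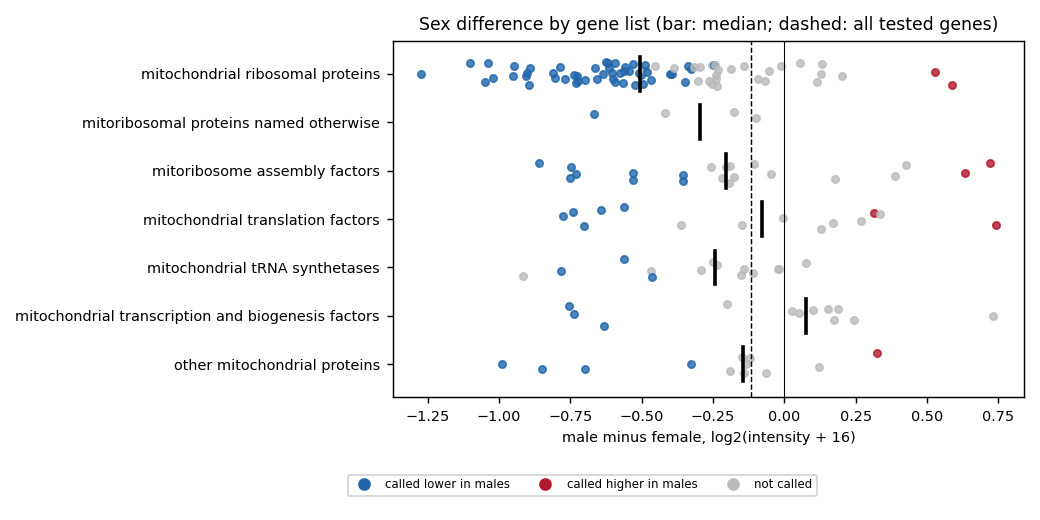
Male minus female difference on the log2(intensity + 16) scale for each tested gene (points, coloured by call; vertical spread has no meaning) of the mitochondrial ribosomal proteins and of 6 other lists, with the median of each list as a bar. The medians are -0.51 for the mitochondrial ribosomal proteins and between -0.30 and 0.08 for the other lists, beside the dashed -0.12 of all tested genes.

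Some markers of other cell types and of the tubercle itself also differed between the sexes. Their counts are to be read beside the 28.2% lower and 14% higher of all tested genes. Of 7 tested skeletal muscle markers 4 were higher in males and 3 did not pass, with summed intensities of 10337 to 16947 in males against 3081 to 8282 in females. Of 5 tested neuron markers 4 were higher in males (10989 to 15238 in males, 8047 to 9609 in females), and of 4 tested macrophage markers 2 were higher and 1 lower (5377 to 6443 in males, 3997 to 4629 in females). Of 4 tested markers of red blood cells 1 was higher and 1 lower (44064 to 53868 in males, 39184 to 42336 in females). These sums are mostly Hbb-y, the higher one (46400 ± 4659 in males and 39049.8 ± 1273.2 in females). Hba-x was lower (550.9 ± 82.2 in males and 1189.9 ± 174.6 in females), and Alas2 and Slc4a1 were not called. Of 4 tested markers of gonad and genital ducts 1 was higher and 1 lower, with overlapping sums. Sox9 was higher (1541.2 ± 171.9 in males and 703.6 ± 108.2 in females) and Wnt4 lower (1600.4 ± 379 in males and 2401.5 ± 270.1 in females). Foxl2 and Star were not called. The testis marker Amh, below the filter, was near the floor of the array in both sexes (8.2 ± 1.7 in males and 8.6 ± 2.5 in females). Of 8 tested tubercle genes 5 were called lower in males and 3 were not called (87870 to 93673 in males, 103574 to 116957 in females). The part of cell composition in the lower ribosomal protein signal was not tested.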

How the data were processed

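The deposited table holds 1 linear intensity per probe set and array, which the authors computed in GCOS (the Affymetrix software), as the submitters' processing notes record without a version. Every column had a 2%-trimmed mean of 1500, so values were taken as already scaled. No pair of arrays was identical. Probe sets were named from the platform annotation: 34945 with 1 gene, 932 with several and 9160 with none, apart from 64 control probe sets. All 156 member probe sets matched the RefSeq gene table.

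Values were transformed as log2(value + 16), and non-control probe sets with a mean at or above the median of 7.77 were tested with limma (version 3.58.1, R 4.3.3), with a mean-variance trend and sex as the only term. The fit was tested on simulated data. Deviations correlated little between samples with the same replicate number (between -0.126 and 0.039), and sex was fitted without pairing. Among the members, however, replicate 1 was the highest array of its sex for 49 genes in males and 47 in females. A pairing by replicate number is therefore not excluded, and a fit with it as a block is given below. Members chosen to be described singly were the 8 called genes furthest from 0 in each direction (of the higher ones there were 2). Genes with calls in both directions, the Mrps18 paralogs and 6 genes with known roles were added. Some of these are given as means or differences only. From each other list up to 3 called genes with the largest differences were named. Members, lists and rules were chosen with earlier results of these data known. The number of arrays limits the precision.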

Additional observations from a re-analysis of the deposited data

Results flagged for a closer look

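In 3 of the 48 groups of 4 arrays behind the members described singly, 1 array stood apart from the other 3 by Dixon's criterion, which chance meets in about 1 of 20 groups. Mrpl22 read 923.4 in male replicate 3 against 1563 to 1615 in the other males. Mrpl12 read 1645 in male replicate 1 against 1033 to 1057 in the other males, and without it the difference was -0.96 in place of -0.80. Mrps12 read 1077 in female replicate 3 against 842.8 to 858.8 in the other females, and without it the call was lost (-0.54, limma adjusted p = 0.0734).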

How the results depend on the processing

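Lower calls outnumbered higher ones among the member genes under every alternative run, though with the 18S covariate only by 1 gene to 0. The median difference of the members was between -0.72 and -0.39. Over all tested genes lower calls also outnumbered higher ones in the main run (28.2% lower and 14% higher). The same held there with quantile normalization (29.31% and 14.62%) and with array centring, given below. With the 18S covariate it did not hold over all tested genes (0.914% lower and 1.09% higher). For the other runs the array-wide shares are not given here. Leaving out 1 array gave 41 to 54 genes lower (58 to 73 probe sets), 2 genes higher (6 to 10 probe sets) and medians from -0.57 to -0.43. With the 18S covariate 1 gene and 2 probe sets were lower and 0 genes and 0 probe sets higher by limma (1 gene and 2 probe sets at an unadjusted p under 0.05). Mrpl49 alone of the named members kept its call (limma adjusted p = 0.0496), and the median was -0.39 beside -0.10 over all tested genes. Centring each array on its median moved the median of all tested genes to -0.33 and that of the members to -0.72. Centring shifts all genes of an array alike, so the gap of -0.39 could not change and is no check. In that run 61 member genes were lower, beside 42.16% of all tested genes. Higher were 1 member gene and 3 probe sets, beside 5.727% of all tested genes. With plain-suffix probe sets alone 59 genes remained to be tested, with 31 genes and 33 probe sets lower and 5 genes higher. The upper-quartile filter left 5 probe sets higher, and leaving out male replicates 1 and 3 left 4. The sign of Mrps18c turned with array weights (0.10), with the 18S covariate (0.48) and without male replicates 1 and 3 (0.19), and ranged from -0.24 to 0.12 with 1 array left out. That of Mrpl11 turned with array centring (-0.012), and neither gene was called. The cause of these changes was not tested. With the replicate number as a block (replicate block), 45 genes were lower and 2 higher (62 and 7 probe sets), and no call of a named member changed. Other named calls that were lost are those of Mrpl21 without male replicate 3, Mrps18b with no filter and Mrps12 without male replicates 1 and 3.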
